A study of Homo sapiens with 2 samples.

Results

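Albumin, the plasma carriers and the acute phase proteins are the main export products of the hepatocyte, and 10 of their genes were followed here, chosen by symbol: ALB, TTR, RBP4, AHSG, AMBP, ITIH2, ORM1, ORM2, SERPINA1 and SAA4. All 10 were among the 11511 genes that had values in the RNA-seq table. The cells were Hep3B, an established line from a human hepatocellular carcinoma. The table compares 1 library of untreated cells, the control, with 1 library of cells given A4368, a compound for which the labels give no other name, at 25 µM over 24 h. Values are FPKM, the fragments assigned to a gene divided by its transcript length and by the size of the library, so levels of genes can be compared per length. Neither the vehicle nor the number of reads is stated in the sources used here, and with 1 library per group no difference below has an error, a test or a replicate check.

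Hepatocytes read these genes through a shared set of liver transcription factors, among them the HNF4, FOXA and C/EBP families, and secrete the proteins into blood. During inflammation, interleukin-6 and interleukin-1 raise the output of positive acute phase proteins, such as the orosomucoids and alpha1-antitrypsin. At the same time the liver makes less of the negative ones, such as albumin, transthyretin, retinol-binding protein and fetuin-A.

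As deposited, all 10 genes were lower in the A4368 library than in the control, but 5 of them by little. After both libraries were rescaled to equal sums that leave out the 50 highest genes, 8 were lower, and ALB and RBP4 stood at log2 ratios of 0.0098 and 0.0079. The log2 ratio throughout is log2(FPKM + 1) of the A4368 library minus that of the control, which shrinks the ratios of genes near or under 1 FPKM. Of 11238 genes with a mean of the libraries of at least 1 FPKM, 48% were lower by any amount as deposited and 39.1% of 11237 after the rescaling. Among the 921 genes at 100 FPKM or more, where 7 of the 10 genes lie, 73% were lower as deposited, so a lower value alone was common at these levels.

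In size, the genes formed a lower and a nearly level set. ORM2, AHSG, ITIH2, ORM1 and SAA4 had log2 ratios of -0.73 to -0.34, while TTR, AMBP, SERPINA1, RBP4 and ALB had ratios of -0.17 to -0.04. The place of SAA4 depends on the added constant: with 5 FPKM in place of 1 its ratio was -0.12, against -0.16 for TTR. ORM1 and ORM2 share sequence and are not independent, as described below. The median of all 10 was -0.26, against 0.01 over the 11238 genes. It was -0.17 for the 9 genes without SAA4, at a mean of at least 5 FPKM. For the 7 genes at 100 FPKM or more the median was -0.09, close to the -0.07 over the 921 genes at that level. A 1.5-fold limit on the log2 scale was passed downward by 1 of the 10, ORM2, against a background of 2.12%, and upward by 0, against 1.08%. A 2-fold limit was passed downward by 0, against 0.436%. A 1.2-fold limit, chosen after the values were seen, was passed downward by 5 of the 10, SAA4 among them, against 11.1%. Among the 7 genes at 100 FPKM or more it was passed by 3, against 8.79% at that level.

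**Figure D1:**
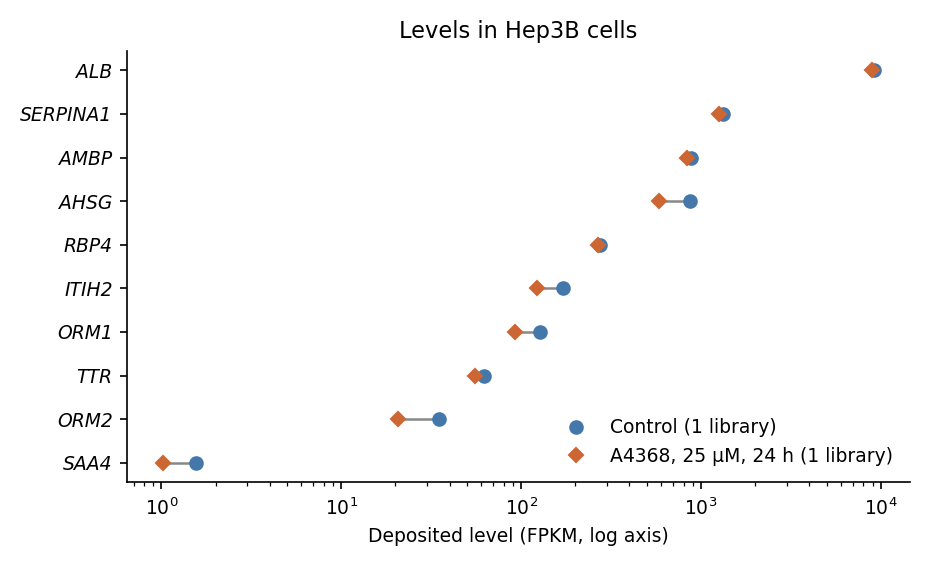
Level of each of the 10 genes in FPKM on a log axis, in the control library (circles) and in the A4368 library (diamonds), joined by a line. ALB tops the order at 9183 and 8930 FPKM and SAA4 ends it at 1.55 and 1.02 FPKM, and the widest gaps on the log axis belong to ORM2, SAA4 and AHSG.

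**Figure D2:**
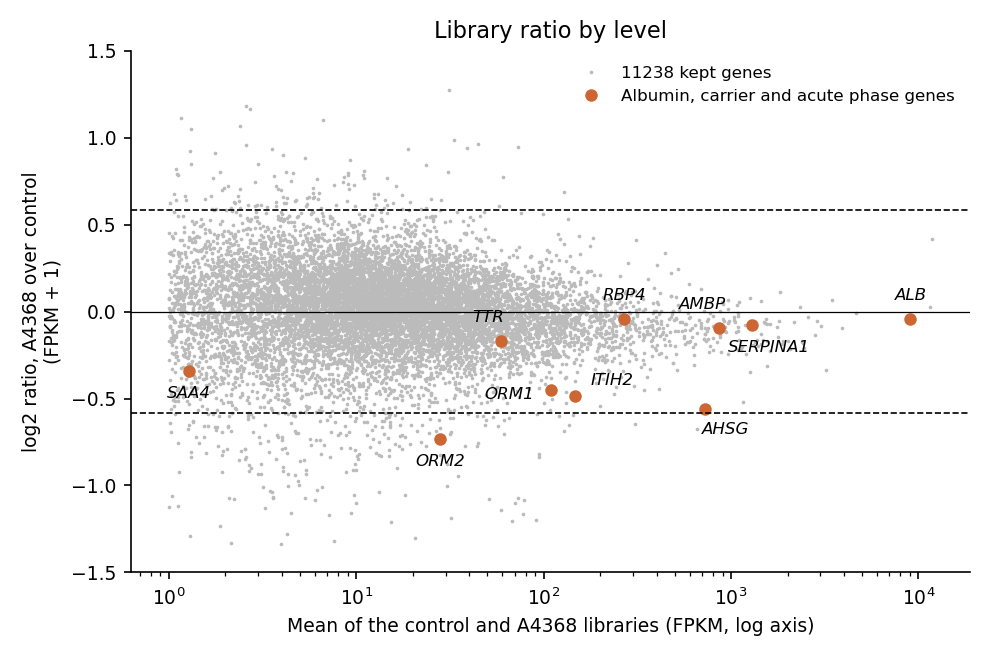
The log2 ratio of A4368 over control against the mean level in FPKM on a log axis, for 11238 genes (grey) and the 10 genes followed (orange). Dashed lines mark the 1.5-fold limits, 14 genes lie outside the vertical range shown, and ORM2 is the orange point below the lower line, with AHSG just above it.

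Albumin itself, the chief protein of plasma and a carrier of fatty acids, hormones and drugs, was close to level. ALB was at 9183 FPKM in control cells and 8930 FPKM in treated cells, a log2 ratio of -0.04. It was the third most abundant gene of the table by mean level and held 1.66% of the summed FPKM in the control and 1.67% in the A4368 library. This share does not depend on the scaling between libraries, and it puts albumin slightly higher with A4368, where the deposited value is slightly lower.

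Transthyretin and retinol-binding protein travel in plasma as a complex, in which TTR carries thyroxine and RBP4 carries retinol. RBP4 was at 274 FPKM in control cells and 266 FPKM in treated cells, a log2 ratio of -0.04. TTR was at 62.5 and 55.4 FPKM, a log2 ratio of -0.17 as deposited and -0.12 after the rescaling. The transcript of the retinol carrier thus exceeded that of its partner 4.38-fold in the control and 4.80-fold with A4368.

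Alpha1-antitrypsin, the main inhibitor of neutrophil elastase and a positive acute phase protein, stood near level like albumin. SERPINA1 was at 1328 FPKM in control cells and 1261 FPKM in treated cells, with a log2 ratio of -0.07. It ranked 42nd of all genes by mean level.

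AHSG had the lowest ratio among the 7 genes above 100 FPKM. It encodes fetuin-A, a plasma glycoprotein of the cystatin superfamily that binds calcium phosphate and keeps it from precipitating. Its level was 864 FPKM in control cells and 586 FPKM in treated cells, which is 32.2% lower and a log2 ratio of -0.56, just inside the 1.5-fold limit at -0.58. AMBP, at a nearly equal level in the control, makes the contrast plain: the AHSG to AMBP ratio was 0.976 in the control and 0.705 with A4368. SERPINA1 exceeded AHSG 1.54-fold in the control and 2.15-fold with A4368. Only 2.39% of the 11238 genes had a lower log2 ratio than AHSG.

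AMBP and ITIH2 supply parts of the same plasma complex, and their proportion differed between the libraries. AMBP encodes a precursor that is cut into alpha1-microglobulin, a lipocalin that binds heme, and bikunin, a protease inhibitor, and ITIH2 encodes a heavy chain that is linked to bikunin through a chondroitin sulfate chain. AMBP was at 885 FPKM in control cells and 831 FPKM in treated cells, a log2 ratio of -0.09. ITIH2 was at 171 and 122 FPKM, 28.6% lower, with a log2 ratio of -0.48. The AMBP transcript exceeded the ITIH2 transcript 5.18-fold in the control and 6.81-fold with A4368.

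The orosomucoids, abundant acute phase lipocalins that bind basic drugs, were lower in both copies. ORM1 was at 127 FPKM in control cells and 92.2 FPKM in treated cells, a log2 ratio of -0.45. ORM2 was at 35.0 and 20.7 FPKM, 41.0% lower, with a log2 ratio of -0.73, and 1.16% of the 11238 genes had a lower ratio. The ORM1 level was 3.61 times that of ORM2 in the control and 4.46 times with A4368.

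These genes are neighbours and share sequence, so Cufflinks has to divide reads between them, and the values of these genes are not independent. In the GENCODE release 29 transcripts, their coding sequences of 606 bases are 94.9% identical and differ at 31 positions, and 65.8% of the coding bases lie in identical runs of at least 31 bases. Of the distinct 31-base words in their transcripts, 49.8% of those of ORM1 and 59.3% of those of ORM2 occur in the other gene. The stretch of 90 coding bases with the most differences, positions 314 to 403 counted from the start codon, shows which letters can tell a read of one gene from the other. Capitals mark the 18 positions at which they differ.
ORM1: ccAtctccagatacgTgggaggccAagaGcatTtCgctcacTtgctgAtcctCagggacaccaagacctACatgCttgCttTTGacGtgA
ORM2: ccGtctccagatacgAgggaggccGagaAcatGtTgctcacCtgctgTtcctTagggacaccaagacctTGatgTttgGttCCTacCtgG
Summed over both genes, the level was 162 FPKM in control cells and 113 FPKM in treated cells. FPKM is divided by transcript length, so the sum can also move with the split, by an amount that was not tested. With the sum in place of the separate genes, 0 of the then 9 genes passed the 1.5-fold limit.

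SAA4 encodes the constitutive serum amyloid A, an apolipoprotein of high-density lipoprotein that, unlike SAA1 and SAA2, is known to respond little to inflammation. Its level was 1.55 FPKM in control cells and 1.02 FPKM in treated cells, with a log2 ratio of -0.34. At this level the ratio follows the pseudocount, at -0.57 with 0.1 FPKM and -0.12 with 5 FPKM. SAA4 also shares 64.4% of its 31-base words with the annotated readthrough gene SAA2-SAA4. SAA1, SAA2 and the readthrough gene were not analysed here.

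Together the 10 genes held 2.33% of the summed FPKM in the control and 2.27% in the A4368 library. ALB alone made up 71.0% and 73.4% of these sums. Without ALB in either the genes or the total, the other 9 held 0.688% in the control and 0.614% with A4368. Most of that gap came from AHSG, which was 278 FPKM lower out of a summed 3748 FPKM in control cells and 3235 FPKM in treated cells for the 9 genes.

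**Figure D3:**
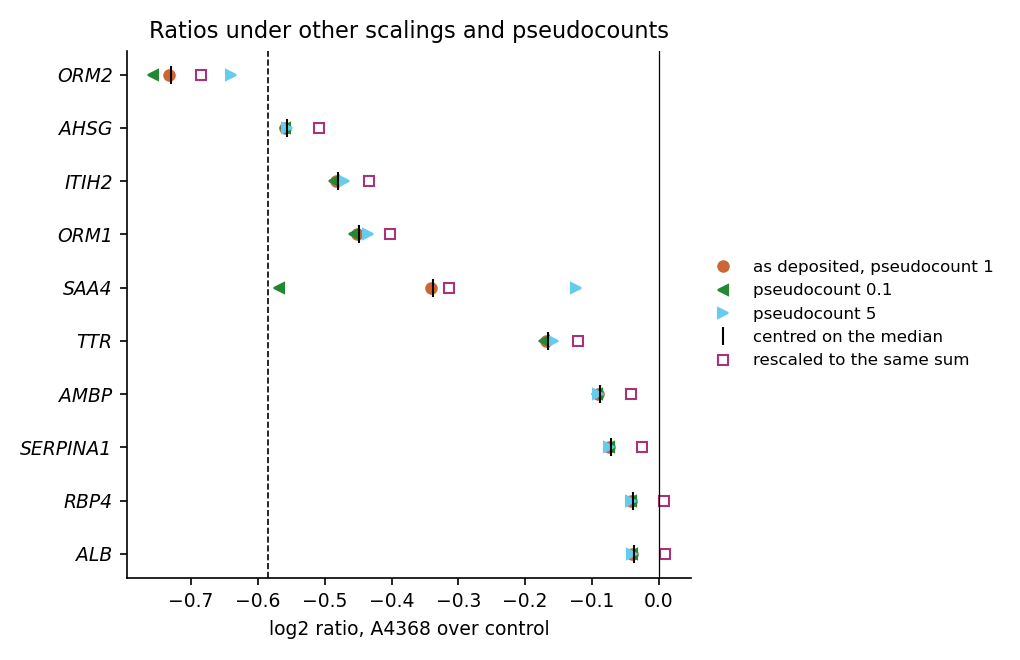
The log2 ratio of each of the 10 genes under 5 treatments of the values, with dashed and solid lines at the lower 1.5-fold limit and at 0. The rescaled values (open squares) lie to the right of the deposited ones by about 0.05, which takes ALB and RBP4 past 0, and SAA4 is the gene whose ratio depends on the pseudocount.

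Upstream sequence was looked at because genes with near-level and with lower values share a tissue. The RefSeq promoter table (GRCh38.p14) matched 7 of the 10 genes by symbol, all but TTR, ORM2 and ITIH2. The 250 bases before the annotated start are shown for ALB and SERPINA1, which were near level, and for AHSG and ORM1, which were lower, in the direction of transcription. SERPINA1 has more than 1 annotated start, and the window with more matches is shown. Its other window held 0 matches, and the windows of AMBP, RBP4 and SAA4 are not shown. Capitals mark matches, on either strand, to short motifs: TGGACTTNG for HNF4, TGTTTNC for FOXA, TTGCNNAA for C/EBP, TTCNNNGAA for STAT and TATAAA for the TATA box.
ALB, chr4:73404037-73404286, plus strand: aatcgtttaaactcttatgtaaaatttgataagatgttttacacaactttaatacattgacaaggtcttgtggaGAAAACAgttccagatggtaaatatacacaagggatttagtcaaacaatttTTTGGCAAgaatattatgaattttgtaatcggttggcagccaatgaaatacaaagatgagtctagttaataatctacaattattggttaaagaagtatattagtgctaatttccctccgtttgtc
SERPINA1, chr14:94388603-94388852, minus strand: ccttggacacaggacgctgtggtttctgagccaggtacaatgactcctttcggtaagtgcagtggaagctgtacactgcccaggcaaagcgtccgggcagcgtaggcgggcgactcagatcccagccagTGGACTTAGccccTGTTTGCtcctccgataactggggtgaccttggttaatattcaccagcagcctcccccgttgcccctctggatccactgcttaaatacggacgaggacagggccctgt
AHSG, chr3:186612810-186613059, plus strand: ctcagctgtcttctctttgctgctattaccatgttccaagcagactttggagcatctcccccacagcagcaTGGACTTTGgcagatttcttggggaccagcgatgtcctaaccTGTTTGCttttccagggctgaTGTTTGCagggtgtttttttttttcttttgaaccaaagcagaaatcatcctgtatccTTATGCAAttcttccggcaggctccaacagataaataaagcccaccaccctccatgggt
ORM1, chr9:114322848-114323097, plus strand: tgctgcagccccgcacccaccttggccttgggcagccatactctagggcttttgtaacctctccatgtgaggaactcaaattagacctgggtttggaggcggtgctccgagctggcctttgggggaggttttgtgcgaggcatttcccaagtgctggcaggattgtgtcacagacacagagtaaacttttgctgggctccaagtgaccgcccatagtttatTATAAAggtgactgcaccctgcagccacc
The ALB window held a FOXA match and a C/EBP match, which began 176 and 125 bases before the start of transcription. In SERPINA1 an HNF4 match and a FOXA match began 121 and 108 bases before the start. The AHSG window held an HNF4 match, a pair of FOXA matches and a C/EBP match, and that of ORM1 a TATA box match alone. Of 35093 promoter windows of this length, 0.758% held the HNF4 letters, 15.5% the FOXA letters, 9.05% the C/EBP letters, 6.57% the STAT letters and 10.7% the TATA letters. These shares are per window and do not allow for the choice of the SERPINA1 window by its matches. HNF4 letters were thus found in a near-level gene, SERPINA1, and in a lower one, AHSG. No window of ALB, ORM1, AMBP, RBP4 or SAA4 held them. Of the windows not shown, that of AMBP held FOXA letters and that of SAA4 held FOXA and C/EBP letters. Those of RBP4 held C/EBP, STAT and TATA letters. A match is a description of letters only and does not show that a factor binds there.

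Other genes of the same trade were read from lists. Of 16 further plasma carriers, 10 had values of at least 1 FPKM on average and all 10 were lower, also after the rescaling. Their median log2 ratio was -0.34 as deposited, and 4 passed the 1.5-fold limit downward. Over all genes 48% were lower as deposited, 39.1% after the rescaling and 2.12% past that limit, and the counts of each list below stand beside these same shares. The shares are not matched for level: among the 921 genes at 100 FPKM or more, where APOH lies, 73% were lower as deposited. AFM, which encodes afamin, a vitamin E carrier of the albumin family, was at 5.25 FPKM in control cells and 1.97 FPKM in treated cells. HPX, the heme carrier hemopexin, was at 21.6 and 12.2 FPKM. APOH, which encodes beta2-glycoprotein I, was at 374 and 238 FPKM, and CP, the copper protein ceruloplasmin, at 12.2 and 7.53 FPKM.

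The albumin family as a whole covered a wide range. Its fetal member AFP was at 368 FPKM in control cells and 295 FPKM in treated cells, with a log2 ratio of -0.32. GC, the vitamin D-binding protein, was at 230 and 179 FPKM, a ratio of -0.35, and AFM had the lowest ratio of the family at -1.07. Albumin thus lay nearest to level of the 4 family genes, and the ALB level was 24.9 times that of AFP in the control and 30.3 times with A4368.

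Acute phase genes that rise in inflammation had 10 measured members of 24 in the list, of which 9 were lower as deposited and 7 after the rescaling, with a deposited median of -0.18 and 1 past the 1.5-fold limit (all genes: 48%, 39.1% and 2.12%). That gene was CP. C4BPA, which encodes a chain of the complement inhibitor C4b-binding protein, was at 5.19 and 3.83 FPKM. CFB, complement factor B, was at 2.39 and 1.66 FPKM and C3, the central complement component, at 232 and 191 FPKM. SERPINA3, the antichymotrypsin gene and a relative of SERPINA1, was at 1.03 FPKM in control cells and 0.095 FPKM in treated cells, which put its mean below the 1 FPKM limit.

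Plasma protease inhibitors had 12 measured members of 19, with 11 lower as deposited, 10 after the rescaling, a deposited median of -0.30 and 2 past the 1.5-fold limit downward (all genes: 48%, 39.1% and 2.12%). Those were SPINK1, a trypsin inhibitor, at 18.7 FPKM in control cells and 10.9 FPKM in treated cells, and SERPIND1, the thrombin inhibitor heparin cofactor II, at 30.5 and 18.4 FPKM. KNG1, the kininogen gene and like AHSG a member of the cystatin superfamily, was 1.52-fold lower from 16.7 FPKM. That is a plain ratio, and the log2 ratio of -0.56 with the pseudocount lies inside the limit. SPINT1, a membrane-bound inhibitor of hepatocyte growth factor activator, was at 51.7 and 41.0 FPKM. Of 8 other lipocalins 3 were measured and all 3 were lower, with APOM, an apolipoprotein that carries sphingosine-1-phosphate, at 53.6 and 40.6 FPKM, LCN15 at 1.91 and 1.23 FPKM and C8G, a chain of complement C8, at 45.5 and 43.3 FPKM.

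**Figure D4:**
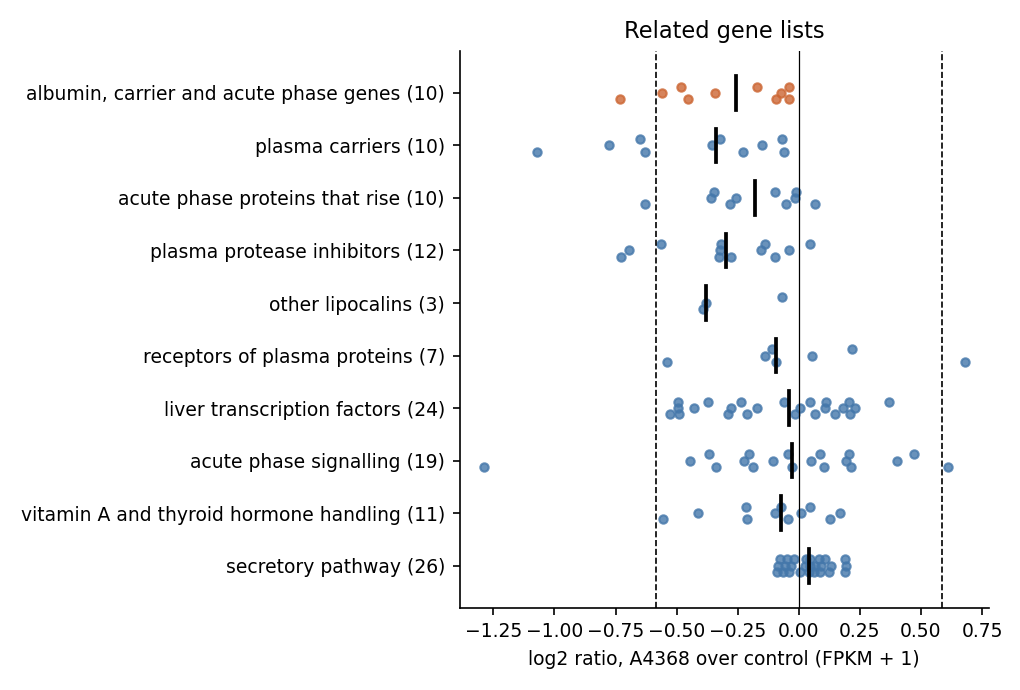
The log2 ratio of A4368 over control for each measured gene (points) of the 10 genes followed and of 9 related lists, with the number of genes in brackets, the median as a black bar and dashed lines at the 1.5-fold limits. The carriers, protease inhibitors and acute phase genes lie mostly left of 0 as deposited, while the secretory pathway genes lie between -0.09 and 0.19.

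Genes of a general list of liver transcription factors were split. Whether the factors on this list act on the genes followed here in Hep3B cells was not tested. Of 24 liver transcription factor genes, all measured, 13 were lower and 11 higher as deposited, 12 and 12 after the rescaling, with a deposited median of -0.04 and 0 past the 1.5-fold limit on the log2(FPKM + 1) scale. DBP and HLF, which encode PAR bZIP factors first studied on liver promoters, were at 3.36 and 2.02 FPKM and at 6.11 and 4.05 FPKM, plain ratios of 1.66-fold and 1.51-fold that the pseudocount of 1 brings inside the limit. NR2F2, an orphan nuclear receptor, was at 25.4 and 17.7 FPKM. ZHX2, a repressor of AFP in mouse liver, was at 9.38 and 6.38 FPKM. HNF4A was at 103 FPKM in control cells and 121 FPKM in treated cells.

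Genes of acute phase signalling, from receptors to inhibitors, had 19 measured members of 23, with 10 lower and 9 higher as deposited, and 8 lower and 11 higher after the rescaling. SOCS1, a feedback inhibitor of cytokine receptors, was at 2.26 FPKM in control cells and 0.332 FPKM in treated cells. NFKBIA, which encodes the NF-kappaB inhibitor IkappaB-alpha, was 1.37-fold lower from 39.8 FPKM. The interleukin-6 receptor gene IL6R was higher at 5.13 and 7.51 FPKM, and PIAS3, an inhibitor of STAT3, at 5.92 and 9.57 FPKM. SOCS1 and PIAS3 were the list's genes past the 1.5-fold limit.

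Vitamin A and thyroid hormone handling, the partner pathways of RBP4 and TTR, had 11 measured members of 16, with 7 lower and 4 higher, a deposited median of -0.07 and 0 past the 1.5-fold limit on the log2(FPKM + 1) scale. RARB, a retinoic acid receptor that is itself a retinoic acid target, was at 2.88 FPKM in control cells and 1.64 FPKM in treated cells, a plain ratio of 1.76-fold that lies inside the limit once the pseudocount is added. The retinaldehyde reductase gene DHRS3 was at 40.4 and 30.2 FPKM and the retinol dehydrogenase gene RDH10 at 28.2 and 24.2 FPKM.

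The secretory pathway, through which all 10 proteins leave the cell, had 26 measured members of 27, with 17 higher and 9 lower as deposited, 21 and 5 after the rescaling, and 0 past the 1.5-fold limit. Of all genes 52.0% were higher as deposited and 60.9% after the rescaling. Many genes of this list lie at 100 FPKM or more, where 27.0% of the 921 genes were higher as deposited. LMAN1, a cargo receptor between endoplasmic reticulum and Golgi, was at 47.5 FPKM in control cells and 54.5 FPKM in treated cells. The COPII coat GTPase gene SAR1B was at 26.4 and 30.2 FPKM, OS9, a lectin of glycoprotein quality control, at 55.8 and 63.7 FPKM and SRP54, of the signal recognition particle, at 51.5 and 56.5 FPKM.

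Receptors that take up or recycle plasma proteins were mixed, with 4 of 7 measured genes lower and a median of -0.09 as deposited. ASGR2, a chain of the asialoglycoprotein receptor, was at 238 and 163 FPKM. FCGRT, the receptor that returns albumin to the circulation, was at 96.8 and 87.9 FPKM. AMN, the partner of cubilin, was higher at 9.75 and 16.2 FPKM and passed the 1.5-fold limit, and LRP1 was at 8.85 and 10.4 FPKM.

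The hepatocyte label held: 14 of 14 hepatocyte markers had values, 8 lower and 6 higher with A4368 both as deposited and after the rescaling, with APOH lowest at a log2 ratio of -0.65. Without APOA2, which was at 11457 and 11651 FPKM, the other 13 summed to 3199 FPKM in control cells and 2924 FPKM in treated cells. Of 7 endothelial markers 0 had values. Of 8 leukocyte markers 3 had values, CD68, LYZ and CD14, with sums of 50.1 and 39.9 FPKM, and of 8 stellate or fibroblast markers 2, LUM and RGS5, with sums of 18.9 and 13.5 FPKM. The cholangiocyte markers KRT19, SOX9 and EPCAM, which hepatoma cells can also express, were 3 of 5 and summed to 661 and 509 FPKM. The leukocyte and stellate sums were lower with A4368 mainly through LYZ, at 17.6 and 9.48 FPKM, and LUM, at 17.9 and 11.9 FPKM, while CD14 was at 2.50 and 2.46 FPKM and RGS5 was higher at 0.98 and 1.64 FPKM. The part of these other markers in the result was not tested. Both libraries came from the Hep3B line, so these sums were not read as amounts of other cell types.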

How the data were processed

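Total RNA of Hep3B cells was measured by RNA-seq in 2 libraries, 1 control and 1 with A4368. The submitters' processing notes name Cufflinks, TopHat2 2.0.12 and Bowtie2 2.2.3, with hg19 as the build. The values deposited by the authors carry no unit in the header and were read as FPKM from these tools. The annotation, and how genes with low values were left out before deposit (lowest mean 0.496 FPKM), are not stated in the sources used here. Counts are not part of the table, so the depth is unknown and no interval could be given.

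From these values, log2((A4368 + 1)/(control + 1)) was computed for the 11238 genes whose mean reached 1 FPKM, and 273 were left out. With 1 library per group no test was run, and limits of 1.5-fold and 2-fold describe size. The alternatives were pseudocounts of 0.1 and 5, no filter, a 5 FPKM filter, ratios centred on the median of genes at 10 FPKM or more, libraries rescaled to equal sums that leave out the 50 highest genes, and ORM1 and ORM2 summed. The 1.2-fold limit and the background at 100 FPKM or more were added after the values were seen. The procedure was tested on simulated data with known changes and a chosen noise. That checks the calculation only, since the noise of the real libraries is unknown.

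The genes followed and the lists were chosen with earlier results of these data known. The text names the 10 genes, up to 4 genes per list with the largest absolute ratio, AFP, AFM, GC, SAA1, SAA2 and SERPINA3, and cell type markers with values, and 2 genes that this rule takes are not reported here. Promoters are from RefSeq (GRCh38.p14) and transcripts from GENCODE release 29, another build than hg19. Python 3.11.15, numpy 2.4.6, pandas 2.3.3 and matplotlib 3.10.9 were used.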

Additional observations from a re-analysis of the deposited data

How the results depend on the processing

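With 1 library per group, no alternative could leave out a replicate, and a value is called moved when it shifted by more than 0.1 log2 units or 10%, or a count by more than 1.5 times. No paired analysis was possible because each group had 1 library. The count of genes lower by 1.5-fold, 1 as reported, was 0 with a 2-fold limit, 0 with ORM1 and ORM2 summed and 5 with the later 1.2-fold limit, and it was 1 under every other alternative run. The median log2 ratio of the 10 genes moved from -0.26 to -0.14 with a pseudocount of 5 FPKM, and was -0.17 at a mean of at least 5 FPKM and -0.17 with ORM1 and ORM2 summed, since it lies midway between TTR and SAA4. Without ALB, the share of summed FPKM was 0.688% in the control and 0.614% with A4368 in place of 2.33% and 2.27%. All 10 genes had lower values as deposited, and 8 after the rescaling. The other pseudocounts could not change this count, because an added constant leaves the sign of a ratio as it is. Nor could the centring, which subtracted a median of -0.003 log2 units, while the gene nearest to level was ALB at -0.04. The unknown depth limits the reading of genes near or under 1 FPKM, such as SAA4, SERPINA3 and SOCS1.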
